A study of Bos taurus with 57 samples.

Results

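A group of 150 testes genes with lower read counts in bull calves on a low plane of nutrition was examined in the testes, the anterior pituitary and the arcuate nucleus. The genes were chosen by their testes counts alone. Counts were converted to CPM (reads on a gene scaled to the same total of counted reads in every library), and 14401 of the 24616 genes in the files had a mean of at least 1 CPM in the testes of calves on the high plane. For each of these genes, each high plane library was set against each low plane library, which gave 80 pairs, and the 150 genes with the largest share of pairs in which the high plane library held the higher CPM were taken. Ties were broken by the larger ratio of the group medians, and 5 genes were excluded by identifier. The testes difference between diets was therefore selected on, and it is described below without a test.

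All calves were male Holstein Friesian and were slaughtered at 126 days of age. High plane calves received a large allowance of milk replacer with concentrate offered ad libitum, with a labelled growth rate of 1.08 kg per day, and low plane calves received a restricted allowance of both, with a labelled growth rate of 0.5 kg per day. Single-end mRNA sequencing gave 57 libraries, of which 10 high plane and 8 low plane libraries were from testes, 9 and 10 from anterior pituitary, and 10 of each diet from arcuate nucleus. Each sample was a piece of tissue with all its cell types, in the testes of the parenchyma, and the labels do not tie the libraries of different tissues to a calf.

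The arcuate nucleus is the region of the hypothalamus that senses metabolic signals and helps control the release of gonadotropin-releasing hormone. The anterior pituitary responds to that hormone with luteinizing hormone and follicle-stimulating hormone. In the testes, luteinizing hormone acts on Leydig cells, which make androgens from cholesterol, and follicle-stimulating hormone acts on Sertoli cells, which nurse the germ cells. The files give Ensembl identifiers without names, so the roles of the 150 genes are not given here, and the markers of Leydig, Sertoli, germ and other cells could not be looked up.

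Between 898979 and 32009433 reads were counted in a library, and the group medians in the testes were 18655866 reads on the high plane and 14180871 on the low plane. Of the 57 libraries, 56 correlated best with the mean of their own tissue across all genes tested. The exception was the low plane arcuate nucleus library C6, with r = 0.699 for the arcuate nucleus and 0.704 for the anterior pituitary. The testes library A48, whose code has the letter of the pituitary libraries, had r = 0.961 with the testes mean.

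A library score was computed as the mean log2 CPM of 200 genes that followed the leading dimension of variation between libraries in the other 2 tissues. The score split the libraries, with 13 between -1.72 and 1.56 and the remaining 44 between 3.47 and 5.15. The 13 low score libraries were 5 of 8 low plane and 1 of 10 high plane testes libraries, 2 of 10 low plane and 3 of 9 high plane pituitary libraries, and 2 of 10 low plane and 0 of 10 high plane arcuate nucleus libraries. In the testes the low score libraries thus fell mostly in the low plane group, and results are given with and without them.

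The high plane arcuate nucleus library C44 also stood apart. Over 34 other genes with a median above 100 CPM in the testes and above 50 times that of both other tissues, C44 held 4243 CPM in sum. The other arcuate nucleus libraries held between 74.6 and 564 CPM, and the testes libraries between 12711 and 28275 CPM. The next highest arcuate nucleus library, at 564 CPM, was C22, the library with the fewest reads.

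In the testes, the 150 genes took 3.03% ± 0.801 (SD, n = 10) of the reads in high plane libraries and 1.37% ± 0.501 (SD, n = 8) in low plane libraries. The high plane libraries ran from 1.56% to 4.33% with a median of 2.94%. The low plane libraries ran from 0.714% to 2.33% with a median of 1.38%, so the groups overlapped only where the lowest high plane library met the upper low plane libraries. That lowest high plane library was B42, the high plane testes library with a low score, in which 122 of the 150 genes lay below their testes median. In tissue that holds several cell types, fewer cells of a type and less RNA per cell cannot be told apart.

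**Figure D1:**
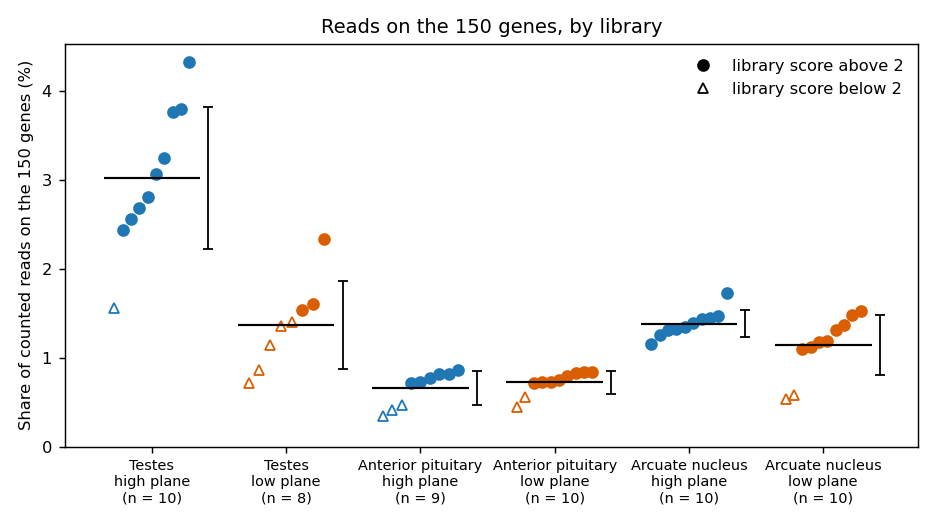
Share of all counted reads (%, vertical axis) that fell on the 150 genes in each library, by tissue and diet, with the group mean as a line and the SD as a bar; open triangles are libraries with a library score below 2. The testes means were 3.03% on the high plane and 1.37% on the low plane, and within every group that has them the open triangles lie at the bottom.

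The ratio of the testes medians, high over low plane, ran from 1.11 to 22.9 with a median of 2.44. It was under 1.5 in 23 genes, from 1.5 to 2 in 30, from 2 to 4 in 64, from 4 to 10 in 24 and at least 10 in 9. Every high plane library lay above every low plane library in 3 of the 150 genes, and in 7 of the 14401 genes ranked (0.0486%), a count that the choice of genes fixes. In 4 genes 79 of 80 pairs had the higher value in the high plane library, and in 34 genes, the lowest step, 73 pairs did. At that step 59 genes were tied, and the last gene taken had a ratio of medians of 1.945 while the first left out had 1.944, so the border of the group is not a step in the data.

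The gene ranked first was ENSBTAG00000039657. Its high plane testes libraries ran from 1.03 to 6.31 CPM with a median of 2.19, and its low plane libraries from 0.138 to 0.875 CPM with a median of 0.485. The lowest high plane library therefore lay above the highest low plane library. The gene ranked second, ENSBTAG00000039163, ran from 2.34 to 4.65 CPM with a median of 2.74 on the high plane and from 0.917 to 1.98 CPM with a median of 1.25 on the low plane, also without overlap. The low score libraries did not lie together at the bottom of their group in either gene, as the plot of the 6 named genes by library shows. The fitted log2 fold change, low against high plane, was -2.32 ± 0.405 (SE) for ENSBTAG00000039657 and -1.23 ± 0.22 (SE) for ENSBTAG00000039163.

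Over the 150 genes the median testes log2 fold change was -1.22, with quartiles of -1.62 and -0.82, against a median of -0.01 over all 15310 genes fitted. With the library score as a covariate the median of the 150 genes was -0.75, and the change was smaller in 127 genes and less than 0.5 of its size in 29. In the 9 high plane and 3 low plane libraries with a score above 2 the median was -0.78, and all 150 genes were below 0. In those 12 libraries the groups did not overlap in 47 of the 150 genes and in 231 of the 14401 genes ranked (1.6%). These libraries were used in the choice of the genes, so the counts are a description.

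The pairs that went against the choice were not spread evenly over the libraries. Of 12000 pairs over the 150 genes, 764 had the higher value in the low plane library, and 61.5% of these held B42. Among the low plane libraries, 30.6% held B31 and 21.1% held B7, both with a score above 2. In B31 92 of the 150 genes lay below their testes median, whereas in the low score libraries B21 and B2 all 150 did. Where the genes were chosen anew without B7, 87 of the 150 genes were kept, without B31 95, and without B42 or B15 101 each.

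The 5 genes with the most reads held 52.3% of the summed CPM of the group in high plane testes; read counts were not divided by gene length. The foremost had a mean of 6456 CPM on the high plane and 3783 CPM on the low plane in the testes, 63.0 CPM in the high plane anterior pituitary and 262 CPM in the high plane arcuate nucleus. The second, ENSBTAG00000025775, averaged 5710 ± 2162 CPM (SD, n = 10) in high plane testes and 1672 ± 1670 CPM (SD, n = 8) in low plane testes. Its low plane libraries ran from 407 to 5182 CPM with a median of 902. The 3 low plane libraries with a score above 2 were its 3 highest, and B42, at 1598 CPM, was its lowest on the high plane.

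The genes were not restricted to the testes. Of the 150 genes, 132 reached a mean of 1 CPM in the high plane anterior pituitary and 137 in the high plane arcuate nucleus, and 6 stayed under 1 CPM in both. The highest mean was in the testes for 86 genes, in the anterior pituitary for 22 and in the arcuate nucleus for 42. On the low plane the same counts were 58, 32 and 60. The genes were chosen as lower in low plane testes, so the direction of this shift away from the testes is fixed by the choice. The level was within 2-fold in all 3 tissues for 35 genes, and 14 genes were more than 10-fold higher in the testes than in both other tissues. The high plane arcuate nucleus means in these counts include C44. For ENSBTAG00000032687 that mean was 14.9 CPM, with 132.6 CPM in C44 and a median of 0.736 CPM.

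**Figure D2:**
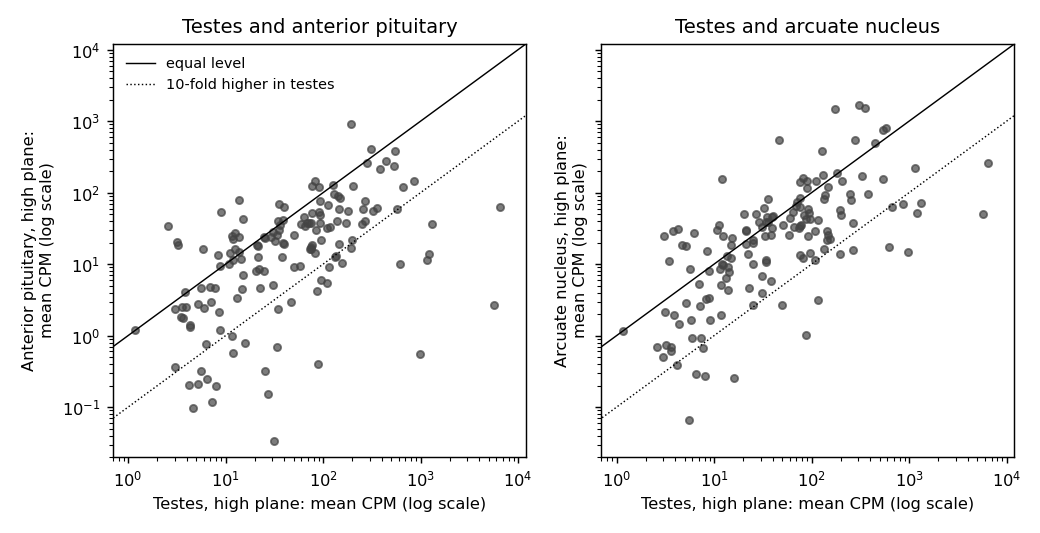
Mean CPM of each of the 150 genes on the high plane in the testes (horizontal log axis) against the anterior pituitary and the arcuate nucleus (vertical log axes); the solid line marks equal levels and the dotted line a 10-fold higher level in the testes. The points scatter about the line of equal level, and 86 of the 150 genes have their highest level in the testes.

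The 14 genes with a more than 10-fold higher level in the testes had a median testes log2 fold change of -1.78, and the 35 genes at a like level in all 3 tissues had -0.90. With the library score as a covariate these medians were -1.15 and -0.50. The classes were set on high plane testes levels, which also enter the fold change and the choice of the genes, so the order of these medians is partly fixed by construction. The 22 genes highest in the anterior pituitary had -1.21 and the 42 highest in the arcuate nucleus -1.21. The summed level of the 14 genes in the testes ran from 3573 to 25263 CPM. In the anterior pituitary it ran from 50.2 to 342 CPM, and in the arcuate nucleus from 84.1 to 540 CPM apart from C44, which held 1899 CPM. C44 was the highest arcuate nucleus library in 11 of the 14 genes.

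The levels of most of the 150 genes followed the leading dimension of variation in the anterior pituitary and the arcuate nucleus. The libraries of these tissues were not used in the choice of the genes, but the choice favours such slopes all the same. Slopes over all genes were close to those in the testes (r = 0.973 and 0.958), where most low score libraries were on the low plane. The slope of log2 CPM on the leading dimension within diets was above 0 in 140 genes in the anterior pituitary and 131 in the arcuate nucleus, and over 13467 genes in 52.6% and 53.2%. In the testes it was above 0 in 132 genes and in 49.5% of all genes, but the same testes values chose the genes and most low score testes libraries were on the low plane, so this count is a description that the choice favours. No gene of the group was among the 200 score genes of the testes, and 1 was in each of the other sets.

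In groups of the same diet, most of the 150 genes were lower in the low score libraries than in the other libraries of the tissue. The median difference of log2(CPM + 1) was -0.91 in the high plane anterior pituitary, with 137 genes lower, and -0.51 in the low plane anterior pituitary, with 121 lower. In the low plane arcuate nucleus it was -1.13, with 140 lower. Over 13467 genes the medians were -0.16, 0.12 and -0.37 in the same order. The choice favours these differences of the group as well, because the slopes were alike in the tissues. In low plane testes it was -0.66, with 135 lower, against -0.03 over all genes, but these libraries took part in the choice of the genes and nothing is read from their value.

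**Figure D3:**
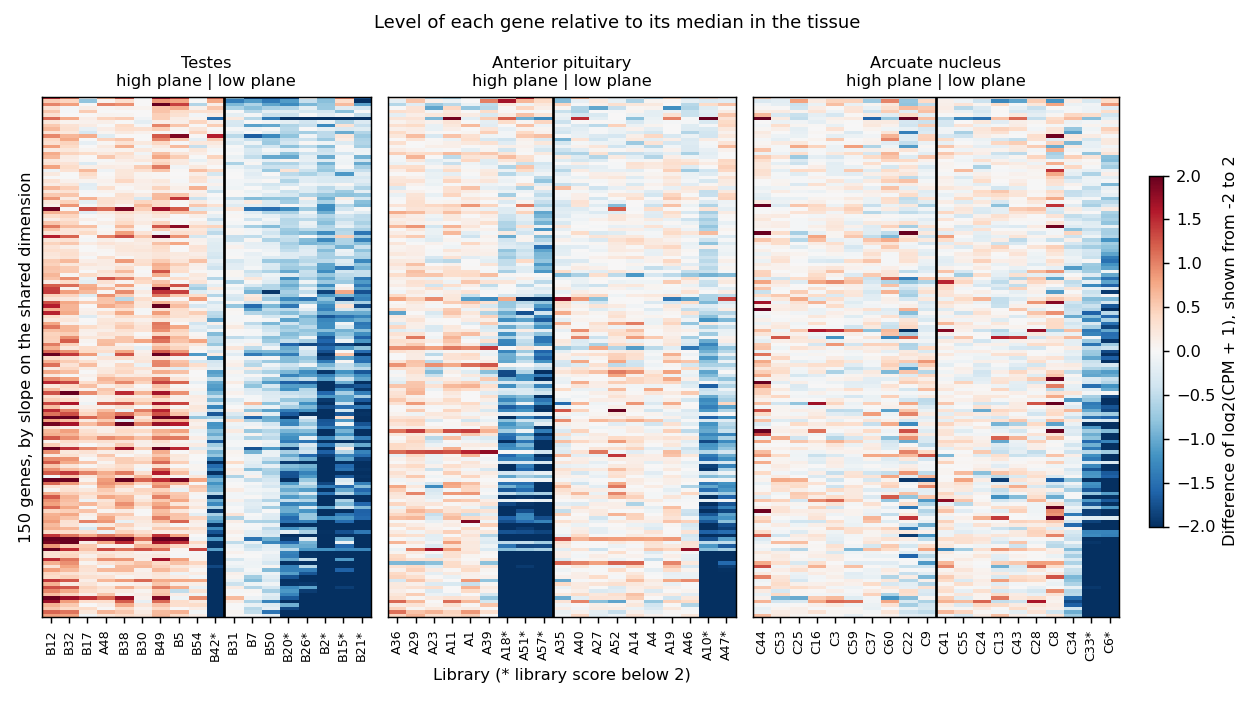
Level of each of the 150 genes (rows, ordered by the mean slope in the 2 other tissues, lowest on top) in each library (columns, high plane left of the line, ordered by library score within a diet), as the difference of log2(CPM + 1) from the median of the gene in the tissue. The lower rows are blue in the starred low score libraries of all 3 tissues and both diets, whereas the upper rows differ between the diets in the testes with little relation to the stars.

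The genes fell into classes by this slope, averaged over the anterior pituitary and the arcuate nucleus. The choice of genes used no library of these tissues, but their slopes were close to those in the testes (r = 0.973 and 0.958). A larger testes difference in a steeper class, and its shrinking with the score, are therefore partly fixed by construction. For the 42 genes with a slope under 0.1 the median testes log2 fold change was -0.73 and was -0.70 with the library score as a covariate. For the 55 genes between 0.1 and 0.3 it was -1.19 and -0.87, and for the 53 genes with at least 0.3 it was -1.498 and -0.72. In the libraries with a score above 2 the medians were -0.63, -0.83 and -0.81 from the flat to the steep class. The gap between the flat and the steep class was thus smaller in both of these fits. In both the steep class kept a larger difference than the flat class, and the middle class had the largest. What part of the testes difference goes with diet and what part with the score was not tested, because the score and diet overlapped in the testes.

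In the anterior pituitary, the diets were compared over libraries that the choice of genes did not use. Of the 150 genes 136 passed the filter on low counts, and 4 of them were lower and 0 higher on the low plane by edgeR's quasi-likelihood test at an adjusted p under 0.05. Over the 14411 genes tested, 0.493% were called lower and 0.0694% higher. The median log2 fold change of the 136 genes was -0.01, and that of all genes 0.02. Of the 136 genes 69 had a value below 0.

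The gene with the smallest p was ENSBTAG00000000660, ranked 5 in the testes. In the anterior pituitary its high plane libraries ran from 1.15 to 2.33 CPM with a median of 1.82, and its low plane libraries from 0.381 to 1.65 CPM with a median of 0.633. The groups overlapped at A27, the highest low plane library, and barely at the next, with 1.1512 CPM against 1.1509 CPM in the lowest high plane library. Its log2 fold change was -1.30 ± 0.256 (SE; adjusted p = 0.019, edgeR). The call was kept with each library left out in turn, with adjusted p from 0.000686 to 0.048 by edgeR.

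The gene ENSBTAG00000001717, ranked 45 in the testes, ran from 2.17 to 3.79 CPM with a median of 3.03 on the high plane of the anterior pituitary and from 0.432 to 2.998 CPM with a median of 0.94 on the low plane. A27 was again the highest low plane library, at 2.998 CPM against 1.51 CPM in the next. Its log2 fold change was -1.44 ± 0.297 (SE; adjusted p = 0.0289, edgeR), and the call was lost without A23, A39, A52, A46, A19, A40 or A35, with adjusted p up to 0.0689 by edgeR. The other 2 called genes, ranked 144 and 146 in the testes, had log2 fold changes of -2.03 ± 0.433 and -1.85 ± 0.418 (SE; adjusted p = 0.0354 and 0.0498, edgeR).

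Leaving out a library changed the pituitary count. Without A11, A1, A36, A14, A4, A19 or A10 it was 2 genes, and without A23, A39, A52, A46, A40 or A35 it was 1. The calls over all genes tested changed as well, from 45 to 82 lower and from 3 to 10 higher with 1 library left out. With the library score as a covariate 14 of the 136 genes were lower and 5 higher, where 3.99% of all genes were called lower and 4.89% higher. In the 14 libraries with a score above 2, 14 of 139 genes were lower and 5 higher, where 2.95% of all genes were called lower and 2.77% higher. The 4 genes above were called in both of these fits, and 16 genes were shared by the 2 fits, 11 lower and 5 higher. In the libraries with a score above 2 the median log2 fold change was -0.14, and 103 of the 139 genes were below 0, as were 50.04% of all genes.

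**Figure D4:**
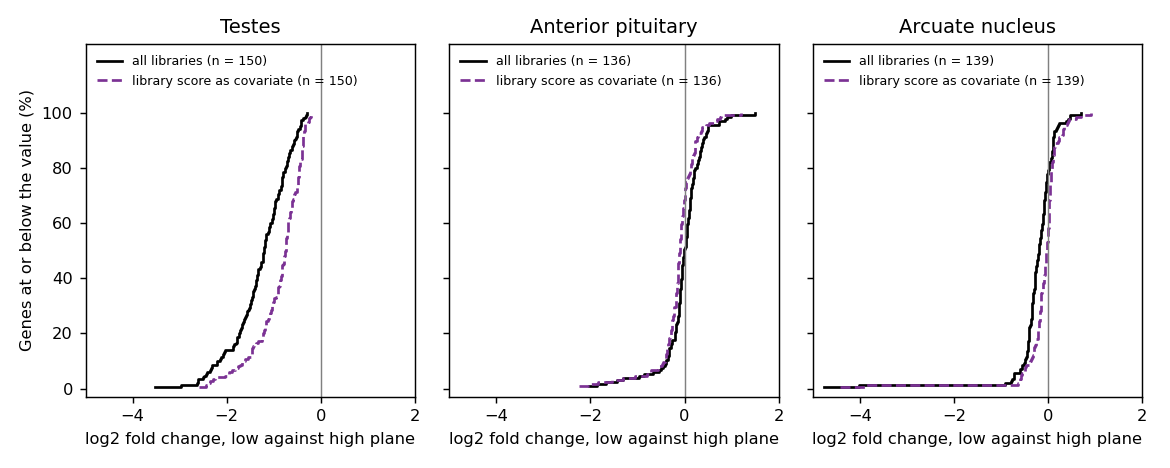
Cumulative share (%) of the genes by log2 fold change, low against high plane, in each tissue, without (solid) and with (dashed) the library score as a covariate, for the genes of the group that passed the low count filter. In the testes, where the genes were chosen, the median moves from -1.22 to -0.75, whereas in the anterior pituitary it lies at -0.01 and -0.10 and in the arcuate nucleus at -0.20 and -0.03.

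In the arcuate nucleus 139 of the 150 genes passed the filter and 0 were called by edgeR in either direction, as was the case for 0% of all 14757 genes tested. By unadjusted p, 12 of the 139 genes and 1464 of all genes were under 0.05, and DESeq2 called 0 of the 150 genes, with 17 under 0.05 unadjusted, as were 1785 of the 21343 genes it was run on. The smallest adjusted p among the 139 genes was 0.477 (edgeR). The median log2 fold change was -0.20, with 109 of the 139 genes below 0, against -0.01 over all genes, of which 50.9% were below 0. Without C6 the median was -0.11, without C33 it was -0.13, and in the 18 libraries with a score above 2 it was -0.05, with 81 of 142 genes below 0. The median of the group thus lay nearer 0 in each of these fits. Most genes of the group still lay below 0 without C6 (105 of 141, against 49.6% of all genes) and without C33 (106 of 141, against 51.9%). What set the small shift of the group was not tested.

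The 2 genes with the smallest p in the arcuate nucleus, ENSBTAG00000032687 and ENSBTAG00000025775, were among the 14 with a more than 10-fold higher level in the testes. ENSBTAG00000032687 ran from 0 to 133 CPM with a median of 0.736 on the high plane and from 0 to 1.14 CPM with a median of 0.466 on the low plane. The highest value was that of C44 and the next highest on the high plane was 12.2 CPM, in C22, the library with the fewest reads. Its log2 fold change was -4.76 ± 1.24 (SE; adjusted p = 0.477, edgeR), and without C44 it did not pass the filter on low counts. ENSBTAG00000025775 stood at 415 CPM in C44, at 70.1 CPM in C22 and lower in the other high plane libraries, with a high plane median of 3.36 CPM. Its log2 fold change was -4.01 ± 1.13 (SE) with C44 and -1.32 without it, in a fit that still held C22.

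In the testes ENSBTAG00000032687 ran from 577 to 1476 CPM with a median of 1002 on the high plane and from 306 to 861 CPM with a median of 529.6 on the low plane. In the anterior pituitary the mean was 0.555 ± 0.338 CPM (SD, n = 9) for high plane libraries and 0.62 ± 0.349 CPM (SD, n = 10) for low plane libraries. Outside the testes its level was thus at most 1.32 CPM in all libraries but C44 and the next highest arcuate nucleus library.

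The diet effects in the anterior pituitary and the arcuate nucleus were set against each other in a fit over both tissues. Of 146 genes tested, 0 differed by edgeR, whereas 9 of all 15503 genes did, all with the more negative change in the anterior pituitary (0.0581%) and 0% in the other direction. By unadjusted p 20 of the 146 genes and 2246 of all genes were under 0.05, and DESeq2 called 0 of 150 with 21 under 0.05 unadjusted, as were 2786 of the 21917 genes it was run on, so the shares of the group were near those of all genes. For ENSBTAG00000000660 the difference of the log2 fold changes was -1.17 ± 0.337 (SE; adjusted p = 0.216, edgeR), so its pituitary change was not shown to differ from that in the arcuate nucleus, where it was -0.13 ± 0.224 (SE). The study took the tissues from the same calves, and this fit treated their libraries as independent because the labels do not say which come from 1 calf. For ENSBTAG00000032687 the difference was 4.82 ± 1.33 (SE; adjusted p = 0.18, edgeR) and 0.94 without C44, in a fit that still held C22.

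The genes ranked first and second in the testes were at a higher level in the anterior pituitary than in the testes. ENSBTAG00000039657 averaged 33.7 ± 11.6 CPM (SD, n = 9) in the high plane anterior pituitary and 27.1 ± 4.97 CPM (SD, n = 10) in that of low plane calves, and its log2 fold change there was -0.33 ± 0.175 (SE; adjusted p = 0.777, edgeR). ENSBTAG00000039163 had 20.7 ± 7.12 CPM (SD, n = 9) and 16.7 ± 5.22 CPM (SD, n = 10), with a log2 fold change of -0.34 ± 0.226 (SE; adjusted p = 0.893, edgeR). Both genes overlapped between the diets in this tissue.

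In the arcuate nucleus ENSBTAG00000039657 had a median of 0.736 CPM on the high plane and 0.392 CPM on the low plane, and its log2 fold change was 0.23 ± 0.483 (SE). Its sign rested on the low plane library C8, at 5.09 CPM, without which the log2 fold change was -0.71. ENSBTAG00000039163 averaged 2.14 ± 0.671 CPM (SD, n = 10) in high plane libraries and 1.503 ± 0.369 CPM (SD, n = 10) in low plane libraries, a log2 fold change of -0.42 ± 0.211 (SE; adjusted p = 0.477, edgeR).

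**Figure D5:**
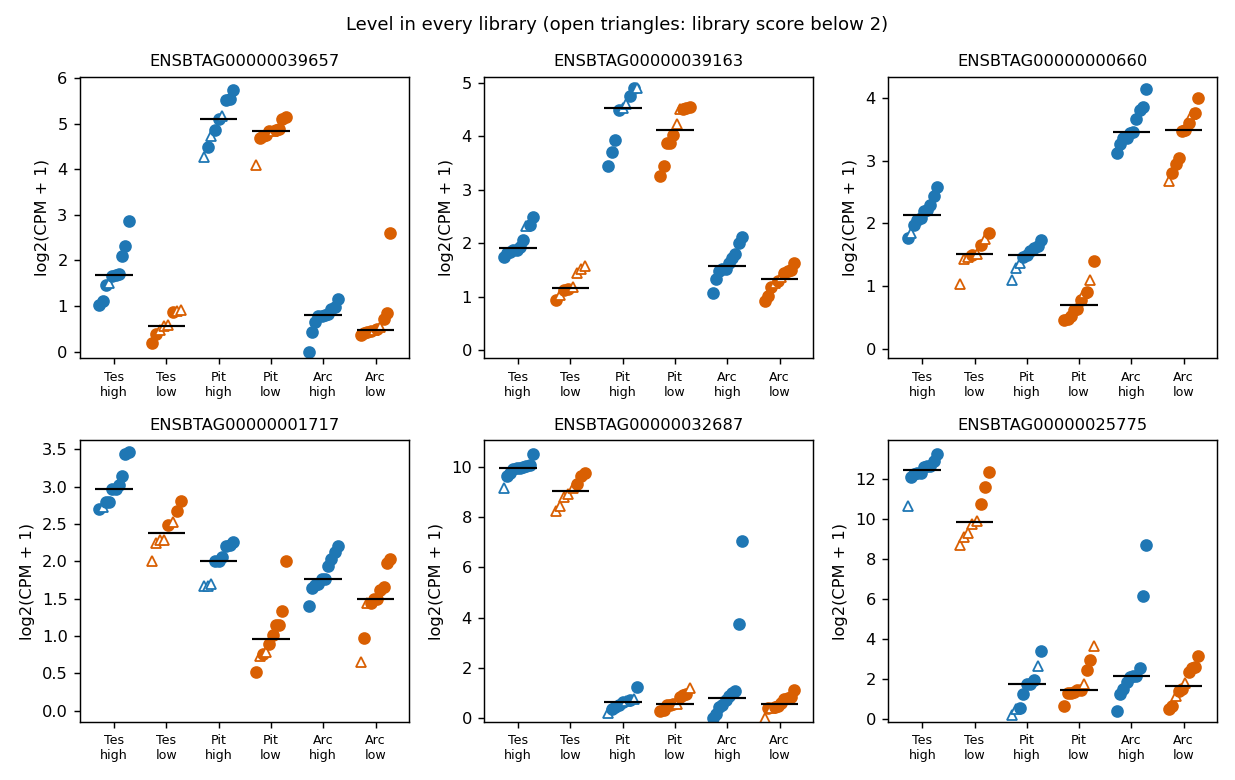
Level of the 6 named genes as log2(CPM + 1) (vertical axis) in every library of the testes (Tes), anterior pituitary (Pit) and arcuate nucleus (Arc) on the high (blue) and low (orange) plane, with the group median as a line and low score libraries as open triangles. ENSBTAG00000000660 and ENSBTAG00000001717 are lower on the low plane in the testes and the anterior pituitary. The highest points of ENSBTAG00000032687 and ENSBTAG00000025775 in the arcuate nucleus are the library C44, and the next highest are C22, at 12.2 and 70.1 CPM.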

How the data were processed

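The authors deposited, for each library, whole-number counts of reads per Ensembl gene without normalization, and 3 libraries with few reads were left out by them. The submitters' processing notes list CASAVA 1.4, STAR, HTSeq and edgeR, and the genome build and annotation release are not given in the sources used here. The tables of counts held 0 columns of other samples. Groups came from the labels. Here CPM used library totals. In R 4.3.3 with edgeR 4.0.16, low counts were filtered with filterByExpr by diet and TMM factors were computed, then the quasi-likelihood test compared diets within a tissue, with p adjusted after Benjamini and Hochberg over all genes tested (threshold 0.05). The interaction fit used the 4 pituitary and arcuate nucleus groups. The genes and lists were chosen with earlier results of these data known, and so was the library score. It is a mean log2 CPM (prior count 2). In 0 of the 150 genes could the identifier be matched to a name in the RefSeq table, so the planned gene lists and cell type markers (steroid and cholesterol synthesis, fatty acids, cell cycle, matrix, ribosome, respiratory chain, growth factor signalling, glutathione) were not used. The genes named are the first 2 by rank and, in the other tissues and the interaction, the 2 with the smallest p; the rule allowed more names, and at most 2 identifiers per comparison were printed because no names were given. DESeq2 1.42.0, other filters and scalings, covariates, and each library left out were alternatives. The diet fits within the anterior pituitary and within the arcuate nucleus were tested on simulated counts. These had less spread between libraries than the data and no split by library score. The interaction and covariate fits were not tested in this way. Libraries are the unit of replication, and since the labels name no calf, p-values measure the spread between libraries. Python 3.11.15 was used for summaries.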

Additional observations from a re-analysis of the deposited data

Results flagged for a closer look

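A search of 48 groups of values, of the library score, the share of reads on the 150 genes and the 6 named genes by tissue and diet, for a single library far from the others found 7, and for normally distributed values the limit used (Dixon's, at 95%) is passed by chance in about 1 group in 20; CPM values are skewed. The library score of B42 was -0.60, and the next lowest high plane testes library had 4.23. In the arcuate nucleus, C44 had 132.6 CPM of ENSBTAG00000032687, with 12.2 CPM in the next highest high plane library, and 414.9 CPM of ENSBTAG00000025775, with 70.1 CPM in the next. The low plane arcuate nucleus library C8 had 5.09 CPM of ENSBTAG00000039657, with 0.791 CPM in the next. In the anterior pituitary, A11 had 1.32 CPM of ENSBTAG00000032687, with 0.676 CPM in the next highest high plane library. A10 had 15.999 CPM of ENSBTAG00000039657, with 24.8 CPM in the next lowest low plane library. A27 had 2.998 CPM of ENSBTAG00000001717, with 1.51 CPM in the next highest low plane library. What set these libraries apart was not tested.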

How the results depend on the processing

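The count of 4 genes called in the anterior pituitary (71 lower and 10 higher of all 14411) depended on the processing, as did that of all genes. It was 19 with the library score as a covariate and 19 in the libraries with a score above 2 (the latter chosen after seeing the data), 7 by DESeq2, which called 198 lower and 77 higher of all 20737 genes, 1 without a filter on low counts, with 59 and 7 of 20737, 0 with CPM above 1 in every library, where 106 genes were tested and 47 and 14 of all 10852 called, and 2 for genes chosen on TMM-scaled CPM, 114 of which were shared with the 150. The 4 genes were not among the 106 tested with CPM above 1 in every library. Their lowest low plane pituitary values were 0.381, 0.432, 0.121 and 0.191 CPM. That count of 0 therefore says nothing about their calls. With the log2 total count as a covariate the count was 5, with 56 lower and 8 higher of all 14411 genes. With library totals without TMM factors it was 3, with 46 and 4 of all 14411. Leaving out each library in turn gave 1 to 4, with 45 to 82 lower and 3 to 10 higher of all genes tested. The counts of 0 in the arcuate nucleus and in the comparison of the 2 tissues stayed 0 in all alternatives run. The pituitary log2 fold change of ENSBTAG00000025775, 0.28, was -0.21 without A10, the lowest of the values with 1 library left out (highest 0.77), and -0.33 in the libraries with a score above 2. The arcuate nucleus log2 fold change of ENSBTAG00000039657, 0.23, was -0.67 by DESeq2 and -0.71 without C8, with 0.36 the highest with 1 library left out. The cause of these shifts was not tested. The call of ENSBTAG00000001717 was also lost without a filter (adjusted p = 0.0551, edgeR). No paired analysis was possible because each library code occurs once and the labels do not say which libraries of the calves, shared by the tissues, belong together. Depth limits the genes with few reads, above all in C22.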
